A study of Mus musculus with 8 samples.

Results

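The 32 genes described here encode the machinery of antigen presentation by MHC class I. The rule takes them by name and uses no measured value, although earlier results of these data were known when the list was drawn up. They are 32 of the 15521 genes in the authors' deposited table, which holds all of them. They comprise 2 classical heavy chains, 9 nonclassical and class I-like heavy chains, the light chain beta-2-microglobulin, 7 genes of peptide transport and loading, 2 trimming peptidases and the transactivator Nlrc5. The other 10 encode catalytic subunits of the proteasome (3 constitutive and 3 inducible) and 4 proteasome activators. The cells were mouse alveolar macrophages, the resident macrophages of the airspaces, taken by bronchoalveolar lavage and selected by 2 h of adherence. All groups were cultured in medium with GM-CSF at 10 ng/ml, were treated for 2 h with DMSO (vehicle) or MSDC at 10 µM, and were then kept for 24 h with or without Poly(I:C) at 5 µg/ml. Bulk RNA-seq gave 2 libraries for each of 4 groups, called vehicle and MSDC where Poly(I:C) was left out, and Poly(I:C) with vehicle or with MSDC where it was added. Poly(I:C) is a synthetic double-stranded RNA used to mimic viral RNA. MSDC is a prefix shared by several code-named compounds that target the mitochondrial pyruvate carrier, and which of them was used is not stated. The labels give neither the age nor the strain of the mice (the strain field holds the treatment), nor whether the replicates came from separate animals or cultures, so the p-values speak only of the spread among these libraries, which may be technical.

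In class I presentation, the proteasome cuts cytosolic proteins into peptides, the TAP transporter carries these into the endoplasmic reticulum, and a loading complex places them on a heavy chain paired with beta-2-microglobulin for display to CD8+ T cells. Interferons are known to raise most of these genes, to replace the constitutive catalytic subunits of the proteasome by inducible ones (forming the immunoproteasome), and to raise Nlrc5, a transactivator that acts at class I promoters. In the lung, alveolar macrophages meet inhaled viruses early, and double-stranded RNA is a ligand of their innate RNA sensors.

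Short elements known from this pathway were searched in the members' promoters, and a few stretches are shown to let the letters of related heavy chain promoters and of genes described below be compared. Promoter sequence (250 bases before to 50 after the start) was found in the RefSeq table of GRCm38.p6 for 26 of the 32 genes. The search covered both strands of 5 motifs in these windows. The core of interferon-stimulated response elements (GAAA and GAAA with any 2 bases between) was found in 5 of the 26 (B2m, Erap1, H2-T22, H2-T23 and Psme1) and in 3.4% of all 32851 RefSeq promoter windows. A STAT site (TTCNNNGAA) was found in 2 (H2-M3 and Psmb8) and in 8.3% of all windows. TGACG, the core of the X2 element, was found in 17 and in 20.8% of all windows, CCAAT in 16 and in 37.4%, and a loose NF-kB site (GGG and CC with any 5 bases between) in 17 and in 50.8%. Some matches overlap each other, and a match describes letters only. The first lines below compare 30 bases of 5 heavy chain promoters that end at an antisense CCAAT element, with TGACG and the antisense CCAAT in capitals. They lie on GRCm38.p6 at chr17:34000359-34000388 (minus strand), chr17:35262993-35263022, chr17:35379513-35379542, chr17:35424746-35424775 and chr17:35439090-35439119 (plus strand), and are credited to RefSeq.
H2-K1: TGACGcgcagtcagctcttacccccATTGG
H2-D1: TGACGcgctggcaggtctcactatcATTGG
H2-Q4: tgacttactggcagttctcacccccATTGG
H2-Q6: atgacctgtaacagttctcacccctATTGG
H2-Q7: aTGACGtgtaacagttctcacccctATTGG
The CCAAT element ends all 5 stretches because they were cut there. TGACG stood in the stretches of H2-K1, H2-D1 and H2-Q7 and was not in those of H2-Q4 or H2-Q6. The H2-Q6 and H2-Q7 stretches matched at 29 of 30 bases (96.7%), H2-K1 and H2-D1 at 23 of 30 (76.7%). These matches include the 5 bases of the CCAAT element. The H2-K1 stretch lies inside the span that RefSeq gives for the gene, and the H2-D1 stretch inside an exon of a GENCODE transcript that starts further upstream. An antisense GENCODE gene, Gm11131, covers the H2-Q4 stretch.

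The next sequence is the B2m promoter, shown because B2m is the most abundant member and its window holds 4 of the 5 motifs searched, at chr2:122147437-122147685 on the plus strand (RefSeq, GRCm38.p6), with the response element core, TGACG and the antisense CCAAT in capitals. Matches to the loose NF-kB site are left in lower case.
B2m: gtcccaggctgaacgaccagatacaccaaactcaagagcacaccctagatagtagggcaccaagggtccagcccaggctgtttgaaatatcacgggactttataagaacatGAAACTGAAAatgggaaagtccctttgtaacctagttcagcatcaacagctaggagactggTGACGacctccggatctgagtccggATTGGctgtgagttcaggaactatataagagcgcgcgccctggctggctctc
H2-T22 (chr17:36042914-36042943, minus strand) and H2-T23 (chr17:36032806-36032835, minus strand) are shown for the antisense form of that core, and Psmb8 (chr17:34198088-34198117, plus strand) for TTCNNNGAA, again in capitals and from the same RefSeq table.
H2-T22: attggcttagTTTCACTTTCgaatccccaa
H2-T23: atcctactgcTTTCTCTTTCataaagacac
Psmb8: tcctccgctgTTCCCAGAAgatgccccccc
Tap1 and Psmb9 are transcribed away from each other, and RefSeq leaves 225 bases between their starts (chr17:34187331-34187555). Of these, 30 bases around the TGACG of that interval (chr17:34187458-34187487, plus strand, TGACG in capitals) are shown, because both genes changed below.
Tap1-Psmb9 interval: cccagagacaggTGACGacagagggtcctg
The windows of H2-T23, Psmb8 and this interval lie in exons of longer GENCODE transcripts (of H2-T23, Psmb8 and Psmb9). All 32 members have coordinates, and 14 lie in the H2 region of chromosome 17 (33919478 to 37274485, from Tapbp to H2-M3).

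The libraries were alike in depth, with 28762425 to 29493223 counts each. The 10 alveolar macrophage markers, Chil3 the largest, summed to 11697 to 13752 TPM (a transcript level scaled by gene length and depth) in every library. T and NK cell markers (4 genes) summed to at most 0.20 TPM and B cell markers (4 genes) to at most 0.16. Neutrophil markers (3 genes) summed to 38.3 to 59.7 TPM and epithelial markers to 21.1 to 36.4. Stromal and endothelial markers summed to 0.540 to 1.73 TPM and erythroid markers (2 genes) to at most 0.270. Some T and NK cell, neutrophil, dendritic cell and erythroid markers were not among the deposited genes, so those sums are partial. Monocyte markers (4 genes, Fn1 the largest) stood at 51.9 and 37.9 TPM in vehicle and at 26.1 to 29.6 in the 6 other libraries. Dendritic cell markers (5 genes, Clec9a the largest) stood at 5.34 and 4.51 TPM in vehicle against 2.29 and 2.90 in MSDC, and at 6.60 and 8.22 in Poly(I:C) with vehicle against 4.24 and 3.48 in Poly(I:C) with MSDC. No listed monocyte or dendritic cell marker was at 0 counts in all 8 libraries. Replicates differed most in vehicle, with a chi-square per degree of freedom of 15.2 against 4.35 to 6.49 in the other groups. The vehicle replicates differed among others in interferon-stimulated genes, with Irf7 at 17.5 and 6.87 TPM. In bulk RNA, fewer cells of a type and less RNA per cell cannot be told apart.

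Poly(I:C) raised most of the machinery. In vehicle, 24 of the 32 members rose and none fell. The median log2 fold change was 0.92 over the members against 0 over all 11621 genes tested, and 15 rose at least 2-fold. Over all tested genes, 7.52% were called higher and 4.1% lower in that comparison. Calls were made where edgeR's quasi-likelihood test, fitted to all 8 libraries, gave a Benjamini-Hochberg adjusted p under 0.05 over all tested genes. All 32 members passed the filter on low counts. No member was below 0 at an unadjusted p under 0.05 in either Poly(I:C) comparison, and DESeq2 also called 0 lower in both. In MSDC, Poly(I:C) again raised 24 members and lowered none (background 4.82% higher and 1.5% lower), with a median of 0.79 against 0.0016 over all genes, and 13 rose at least 2-fold. The calls were shared by 23 members, with Psmb6 called in vehicle alone and Canx in MSDC alone. H2-Q6, Mr1, Cd1d1, Lnpep, Psmb5, Psmb7 and Psme3 were called in neither.

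MSDC moved a smaller set, mostly downwards. In resting cells 11 members fell and 4 rose (background 12.4% lower and 11.1% higher), and the median log2 value of the members was -0.12 against -0.0015 over all genes. In stimulated cells 15 fell and 1 rose (background 13.6% lower and 12.5% higher), with a median of -0.30 against -0.0024. Both states shared 10 falls, in H2-T22, H2-T23, H2-T24, H2-M3, B2m, Tap1, Tapbp, Nlrc5, Psmb8 and Psmb10. Erap1 was called lower in resting cells alone, and H2-K1, H2-Q4, H2-Q7, Psmb9 and Psme1 in stimulated cells alone.

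**Figure D1:**
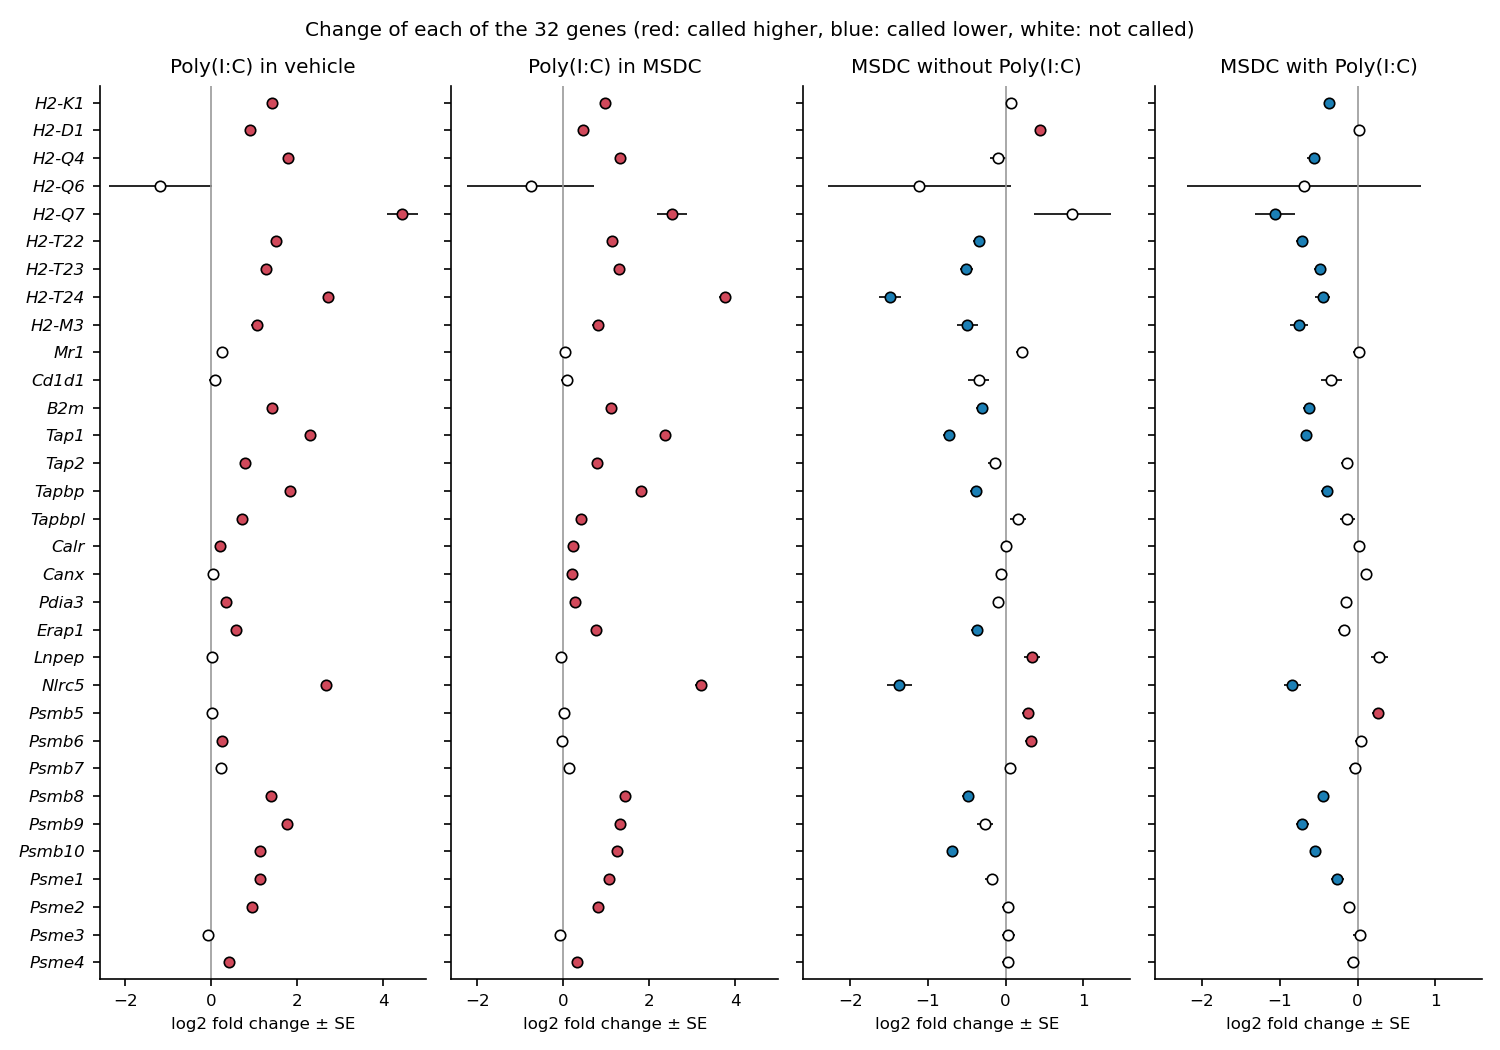
Log2 fold change (horizontal axis, ± SE from edgeR) of each of the 32 genes in 4 comparisons, with red points called higher, blue points called lower and white points not called. In both Poly(I:C) panels 24 points are red and none blue, and the MSDC panels hold 11 and 15 blue points. The horizontal scale is wider in the Poly(I:C) panels.

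Beside the falls with MSDC stand shifts in other genes. Of 14 listed interferon-stimulated genes, all were higher with Poly(I:C) in vehicle and in MSDC (background 7.52% and 4.82%). With MSDC 7 were lower in resting cells and 8 in stimulated cells (background 12.4% and 13.6%). The response to Poly(I:C) was called larger in MSDC than in vehicle for 2 of the 14 and smaller for 0 (background 0.12% and 0.103%). Irf7, an interferon-induced transcription factor, stood at 17.5 and 6.87 TPM in vehicle, 1.86 and 4.49 in MSDC, 999 and 999 in Poly(I:C) with vehicle, and 439.6 and 496 in Poly(I:C) with MSDC. Its groups did not overlap, although both resting groups had unequal replicates. Isg15, a ubiquitin-like interferon-induced protein, stood at 6.66 and 3.60 TPM in vehicle and 1.93 and 4.21 in MSDC, where the groups overlap, and at 332 and 328 against 228 and 289 with Poly(I:C), where they do not. Dendritic cell marker sums were lower with MSDC in both states, and the monocyte sum was lower with MSDC at rest while its stimulated libraries overlapped. With MSDC the background was 11.1% higher and 12.4% lower at rest, and 12.5% and 13.6% in stimulated cells. Of the 10 alveolar macrophage markers, 5 were called higher and 4 lower with MSDC in each state. They ranged at rest from Chil3, a chitinase-like protein (-0.82 ± 0.051 log2 units), to Krt79, a keratin (3.85 ± 0.095), both named for their extreme values, and in stimulated cells the same genes stood at -0.58 ± 0.051 and 3.71 ± 0.091. The part of any of these in the results on the members was not tested.

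The classical heavy chains, H2-K1 and H2-D1, present peptides to CD8+ T cells. H2-K1 stood at 367 and 359 TPM in vehicle, 368 and 379 in MSDC, 921 and 913 in Poly(I:C) with vehicle, and 714 and 739 in Poly(I:C) with MSDC. Both stimulated groups lay above both resting groups, the resting groups nearly coincided, and among stimulated libraries those with MSDC were lower. H2-K1 rose with Poly(I:C) by 1.40 ± 0.056 log2 units in vehicle (edgeR adjusted p = 4.37e-11) and by 0.96 ± 0.056 in MSDC (adjusted p = 3.73e-09). With MSDC it fell by 0.37 ± 0.055 log2 units in stimulated cells (edgeR adjusted p = 8.06e-05), and the value in resting cells was 0.067 ± 0.055 (adjusted p = 0.460).

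H2-D1 was the more abundant of the pair in every library, at 1209.8 and 1200.0 TPM in vehicle, 1597 and 1620.3 in MSDC, 2141 and 2138 in Poly(I:C) with vehicle, and 2141 and 2286 in Poly(I:C) with MSDC. Here MSDC libraries were above vehicle libraries at rest, and the stimulated groups lay side by side, with replicate 1 of each within 1 TPM of the other. H2-D1 rose with MSDC in resting cells by 0.44 ± 0.053 log2 units (edgeR adjusted p = 9.95e-06), while the value in stimulated cells was 0.016 ± 0.053 (adjusted p = 0.871). Poly(I:C) raised it by 0.89 ± 0.053 in vehicle and 0.46 ± 0.053 in MSDC. The ratio of H2-K1 to H2-D1 in TPM, chosen after the values were seen, was 0.304 and 0.299 in vehicle, 0.231 and 0.234 in MSDC, 0.430 and 0.427 in Poly(I:C) with vehicle and 0.333 and 0.323 in Poly(I:C) with MSDC. H2-K1 was thus a smaller share of the pair with MSDC than with vehicle in both states. H2 genes are highly similar to each other and differ between mouse strains: 9.6% of the 50-base windows of H2-K1 transcripts and 12.8% of those of H2-D1 also occur in another gene, and the deposited H2-D1 counts were not whole in any library. The sources used here do not say how such reads were assigned.

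The nonclassical heavy chains of the T and M regions moved with the classical ones under Poly(I:C), and fell with MSDC in both states. H2-T23 encodes Qa-1, a ligand of NKG2A receptors on NK cells and CD8+ T cells. Its level was 117 and 116 TPM in vehicle, 82.0 and 79.0 in MSDC, 262 and 276 in Poly(I:C) with vehicle, and 179 and 216 in Poly(I:C) with MSDC. Within each state the MSDC libraries lay below the vehicle libraries with no overlap. H2-T23 rose by 1.27 ± 0.081 log2 units with Poly(I:C) in vehicle and 1.30 ± 0.083 in MSDC, and fell with MSDC by 0.51 ± 0.083 at rest (edgeR adjusted p = 0.000235) and 0.48 ± 0.079 in stimulated cells (adjusted p = 0.000238). The interaction was 0.028 ± 0.11 (adjusted p = 0.995).

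H2-T22, a ligand of some γδ T cell receptors, stood at 65.4 and 62.4 TPM in vehicle, 46.3 and 52.4 in MSDC, 171 and 175 in Poly(I:C) with vehicle, and 102 and 115 in Poly(I:C) with MSDC. Poly(I:C) raised it by 1.51 ± 0.080 log2 units in vehicle and 1.14 ± 0.081 in MSDC. MSDC lowered it by 0.71 ± 0.077 in stimulated cells (edgeR adjusted p = 3.24e-06) and by 0.34 ± 0.082 at rest (adjusted p = 0.00553). The call at rest was lost without MSDC replicate 1 (adjusted p = 0.104). Of its 50-base windows 34.5% occur in other genes, H2-T10 first among them.

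H2-T24 showed the widest swing of the T region genes, at 14.0 and 10.2 TPM in vehicle, 4.41 and 4.18 in MSDC, 76.2 and 81.2 in Poly(I:C) with vehicle, and 57.6 and 60.8 in Poly(I:C) with MSDC. All 4 groups were apart, with MSDC alone lowest and Poly(I:C) with vehicle highest. It rose with Poly(I:C) by 2.72 ± 0.11 log2 units in vehicle (edgeR adjusted p = 4.16e-11) and by 3.76 ± 0.13 in MSDC (adjusted p = 5.64e-12). With MSDC it fell by 1.48 ± 0.14 at rest (edgeR adjusted p = 7.21e-07) and by 0.45 ± 0.095 in stimulated cells (adjusted p = 0.00224). H2-M3, which presents N-formylated peptides of bacteria and mitochondria, stood at 11.1 and 12.1 TPM in vehicle, 8.03 and 8.17 in MSDC, 22.6 and 23.5 in Poly(I:C) with vehicle, and 13.3 and 14.8 in Poly(I:C) with MSDC. It rose by 1.05 ± 0.12 and 0.80 ± 0.13 log2 units with Poly(I:C) in vehicle and in MSDC, and fell with MSDC by 0.75 ± 0.12 in stimulated cells (edgeR adjusted p = 0.000139). Its fall at rest, by 0.49 ± 0.13 (adjusted p = 0.0112), was lost without vehicle replicate 2 (adjusted p = 0.0759) or without MSDC replicate 1 (adjusted p = 0.0716).

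The Q region genes share sequence with each other and with other H2 genes. H2-Q4, a nonclassical heavy chain, stood at 29.1 and 28.1 TPM in vehicle, 26.1 and 26.4 in MSDC, 91.1 and 99.0 in Poly(I:C) with vehicle, and 58.5 and 72.8 in Poly(I:C) with MSDC. It rose with Poly(I:C) by 1.79 ± 0.094 log2 units in vehicle and 1.33 ± 0.095 in MSDC, and fell with MSDC by 0.57 ± 0.089 in stimulated cells (edgeR adjusted p = 0.000148). At rest its value was -0.100 ± 0.099 (adjusted p = 0.548). H2-Q7, which encodes Qa-2, was low at rest and had the largest rise of all members in vehicle, at 1.19 and 0.940 TPM in vehicle, 0.980 and 3.15 in MSDC, 23.1 and 22.1 in Poly(I:C) with vehicle, and 7.98 and 14.8 in Poly(I:C) with MSDC. Its rise was 4.44 ± 0.36 log2 units in vehicle (edgeR adjusted p = 2.12e-07) and 2.53 ± 0.34 in MSDC (adjusted p = 0.000113). The rise in MSDC was 1.93 log2 units without MSDC replicate 1 and 3.56 without MSDC replicate 2, and was called in both cases. Its fall with MSDC in stimulated cells, by 1.06 ± 0.26 (adjusted p = 0.00600), was lost in DESeq2 (adjusted p = 0.203) and without Poly(I:C) with MSDC replicate 1 (adjusted p = 0.109). At rest the value with MSDC was 0.86 ± 0.49 (adjusted p = 0.260).

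H2-Q6 stood at 1.95 and 0.260 TPM in vehicle, 0.980 and 0 in MSDC, 0 and 0.900 in Poly(I:C) with vehicle, and 0 and 0.570 in Poly(I:C) with MSDC, with unequal replicates in all 4 groups, and its SE was above 1 log2 unit in every comparison. In H2-Q6 and H2-Q7, 32% and 26.4% of the 50-base windows occur in another gene. The deposited counts of H2-Q6, H2-Q7, H2-Q8 and H2-Q9 were therefore also summed into 1 feature, a choice made after the data were seen. The sum was 87.1 and 58.1 counts in vehicle, 72.2 and 81.5 in MSDC, 987 and 995 in Poly(I:C) with vehicle, and 416 and 559 in Poly(I:C) with MSDC. In edgeR the sum rose with Poly(I:C) by 3.82 ± 0.18 log2 units in vehicle (adjusted p = 2.27e-10) and 2.69 ± 0.18 in MSDC (adjusted p = 2.91e-08). It fell with MSDC by 1.03 ± 0.14 in stimulated cells (edgeR adjusted p = 4.30e-05), and its value at rest was 0.10 ± 0.23 (adjusted p = 0.820).

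Mr1 and Cd1d1 present other ligands than peptides, namely microbial vitamin B metabolites and lipids. Neither was called in any of the 4 comparisons. Mr1 stood at 43.3 and 37.1 TPM in vehicle, 47.7 and 43.6 in MSDC, 43.9 and 46.9 in Poly(I:C) with vehicle, and 48.0 and 46.0 in Poly(I:C) with MSDC, with a log2 value of 0.25 ± 0.080 for Poly(I:C) in vehicle (edgeR adjusted p = 0.0600). Cd1d1 stood at 12.7 and 14.1 TPM in vehicle, 9.59 and 11.2 in MSDC, 12.1 and 15.0 in Poly(I:C) with vehicle, and 11.2 and 10.7 in Poly(I:C) with MSDC, and its values for Poly(I:C) were 0.075 ± 0.13 in vehicle and 0.084 ± 0.14 in MSDC.

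B2m encodes the light chain that pairs with all of these heavy chains, and had the highest level of the 32 genes in all 4 groups. It stood at 3822 and 3133 TPM in vehicle, 2849 and 2653 in MSDC, 8651 and 8986 in Poly(I:C) with vehicle, and 6157 and 5562 in Poly(I:C) with MSDC. Stimulated libraries were above resting libraries and MSDC libraries below vehicle libraries in both states, with no overlap. B2m rose with Poly(I:C) by 1.42 ± 0.075 log2 units in vehicle (edgeR adjusted p = 1.17e-09) and 1.10 ± 0.074 in MSDC (adjusted p = 2.66e-08). It fell with MSDC by 0.62 ± 0.073 in stimulated cells (edgeR adjusted p = 8.16e-06) and by 0.31 ± 0.073 at rest (adjusted p = 0.00535), the latter call being lost without MSDC replicate 2 (adjusted p = 0.0633). The ratio of B2m to the sum of H2-K1 and H2-D1 in TPM, chosen after the values were seen, was 2.42 and 2.01 in vehicle, 1.45 and 1.33 in MSDC, 2.83 and 2.94 in Poly(I:C) with vehicle and 2.16 and 1.84 in Poly(I:C) with MSDC. Light chain RNA thus stood above that of both classical heavy chains in every library, and nearest to it in MSDC alone.

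Among the 7 genes of peptide transport and loading, 6 rose with Poly(I:C) in vehicle and all 7 in MSDC, and Tap1 and Tapbp were the 2 that fell with MSDC. Tap1 and Tap2 encode the subunits of the peptide transporter. Tap1 stood at 28.8 and 26.2 TPM in vehicle, 16.9 and 15.7 in MSDC, 125 and 134 in Poly(I:C) with vehicle, and 81.9 and 86.2 in Poly(I:C) with MSDC, so that all 4 groups were apart. It rose by 2.30 ± 0.072 log2 units with Poly(I:C) in vehicle (edgeR adjusted p = 2.69e-12) and 2.37 ± 0.075 in MSDC (adjusted p = 3.46e-12). With MSDC it fell by 0.73 ± 0.076 at rest (edgeR adjusted p = 2.30e-06) and 0.66 ± 0.067 in stimulated cells (adjusted p = 1.69e-06).

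Tap2 moved less than its partner, at 34.9 and 32.7 TPM in vehicle, 29.2 and 30.9 in MSDC, 55.6 and 55.5 in Poly(I:C) with vehicle, and 47.5 and 56.1 in Poly(I:C) with MSDC. Poly(I:C) raised Tap2 by 0.78 ± 0.081 log2 units in vehicle and 0.79 ± 0.082 in MSDC, and its values with MSDC were -0.14 ± 0.083 at rest (edgeR adjusted p = 0.275) and -0.13 ± 0.080 in stimulated cells (adjusted p = 0.254). The ratio of Tap1 to Tap2 in TPM, chosen after the values were seen, was 0.826 and 0.800 in vehicle and 0.578 and 0.508 in MSDC, against 2.25 and 2.42 in Poly(I:C) with vehicle and 1.72 and 1.54 in Poly(I:C) with MSDC. Tap2 was thus the higher of the pair in resting libraries and Tap1 in stimulated ones.

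Tapbp encodes tapasin, which bridges heavy chains to the transporter. It stood at 196 and 192 TPM in vehicle, 155 and 138 in MSDC, 596 and 723 in Poly(I:C) with vehicle, and 500.3 and 523 in Poly(I:C) with MSDC. Tapbp rose with Poly(I:C) by 1.82 ± 0.080 log2 units in vehicle and 1.81 ± 0.080 in MSDC, and fell with MSDC by 0.38 ± 0.079 at rest (edgeR adjusted p = 0.00196) and 0.40 ± 0.078 in stimulated cells (adjusted p = 0.00105). Tapbpl, a tapasin relative that edits peptides outside the loading complex, stood at 15.1 and 16.4 TPM in vehicle, 17.4 and 17.5 in MSDC, 25.8 and 24.1 in Poly(I:C) with vehicle, and 22.3 and 23.9 in Poly(I:C) with MSDC. It rose by 0.71 ± 0.097 log2 units in vehicle (edgeR adjusted p = 9.71e-05). In MSDC its rise of 0.42 ± 0.097 (adjusted p = 0.0138) was lost without any 1 of the 4 libraries compared, with adjusted p from 0.0542 to 0.157.

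The general chaperones of the loading complex were abundant and moved little. Calr (calreticulin) stood at 1721 and 1857 TPM in vehicle, 1749 and 1782 in MSDC, 2008 and 1956 in Poly(I:C) with vehicle, and 2073 and 2029.6 in Poly(I:C) with MSDC. Canx (calnexin), which holds free heavy chains, stood at 306 and 288 TPM in vehicle, 288 and 269.9 in MSDC, 292 and 296 in Poly(I:C) with vehicle, and 315 and 332 in Poly(I:C) with MSDC. Pdia3, the oxidoreductase of the loading complex, stood at 605 and 629.6 TPM in vehicle, 569 and 567 in MSDC, 767 and 734 in Poly(I:C) with vehicle, and 687 and 694 in Poly(I:C) with MSDC. None of the 3 was called with MSDC, where their log2 values ran from -0.15 (Pdia3, stimulated) to 0.11 (Canx, stimulated). With Poly(I:C), Pdia3 rose by 0.34 ± 0.057 log2 units in vehicle (edgeR adjusted p = 0.000632) and by 0.28 ± 0.057 in MSDC (adjusted p = 0.00446), the latter lost without MSDC replicate 1 (adjusted p = 0.0933) or 2 (adjusted p = 0.0666). Calr rose by 0.21 ± 0.058 and 0.22 ± 0.058 (edgeR adjusted p = 0.0289 and 0.0351). Each call was lost without any 1 of 6 libraries and with library totals in place of TMM scaling. The call in vehicle was also lost with the comparison's groups alone. Over all settings the log2 values of Calr ran from 0.133 to 0.287 in vehicle and from 0.188 to 0.239 in MSDC. The rise of Canx in MSDC, by 0.21 ± 0.056 (edgeR adjusted p = 0.0317), was likewise lost without any 1 of 6 libraries and with library totals. Its log2 values there ran from 0.174 to 0.242.

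The trimming peptidases shorten precursors to the length class I molecules hold. Erap1, the aminopeptidase of the endoplasmic reticulum, stood at 41.1 and 36.6 TPM in vehicle, 30.4 and 27.9 in MSDC, 56.7 and 54.4 in Poly(I:C) with vehicle, and 47.6 and 53.7 in Poly(I:C) with MSDC. It rose with Poly(I:C) by 0.58 ± 0.074 log2 units in vehicle and 0.77 ± 0.075 in MSDC, and fell with MSDC by 0.37 ± 0.075 at rest (edgeR adjusted p = 0.00154). In stimulated cells its value was -0.18 ± 0.073 (adjusted p = 0.0865). Lnpep, an endosomal aminopeptidase linked to cross-presentation, stood at 26.5 and 18.8 TPM in vehicle, 29.0 and 27.2 in MSDC, 21.4 and 22.4 in Poly(I:C) with vehicle, and 26.7 and 27.8 in Poly(I:C) with MSDC. It rose with MSDC at rest by 0.34 ± 0.11 (edgeR adjusted p = 0.0283), but vehicle replicate 2 was the lowest of all 8 libraries, and without it the adjusted p was 0.246. The call was also lost without MSDC replicate 1 (0.178), MSDC replicate 2 (0.0895) or Poly(I:C) with MSDC replicate 2 (0.0547).

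Nlrc5, the class I transactivator, was a low-level gene that moved in all 4 comparisons. It stood at 3.23 and 2.67 TPM in vehicle, 0.900 and 1.32 in MSDC, 17.9 and 19.1 in Poly(I:C) with vehicle, and 9.63 and 11.5 in Poly(I:C) with MSDC. All 4 groups were apart, in the order MSDC, vehicle, Poly(I:C) with MSDC and Poly(I:C) with vehicle. Nlrc5 rose by 2.68 ± 0.13 log2 units with Poly(I:C) in vehicle (edgeR adjusted p = 2.65e-10) and 3.21 ± 0.15 in MSDC (adjusted p = 1.74e-10). It fell with MSDC by 1.37 ± 0.16 at rest (edgeR adjusted p = 7.79e-06) and by 0.84 ± 0.11 in stimulated cells (adjusted p = 3.30e-05).

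**Figure D2:**
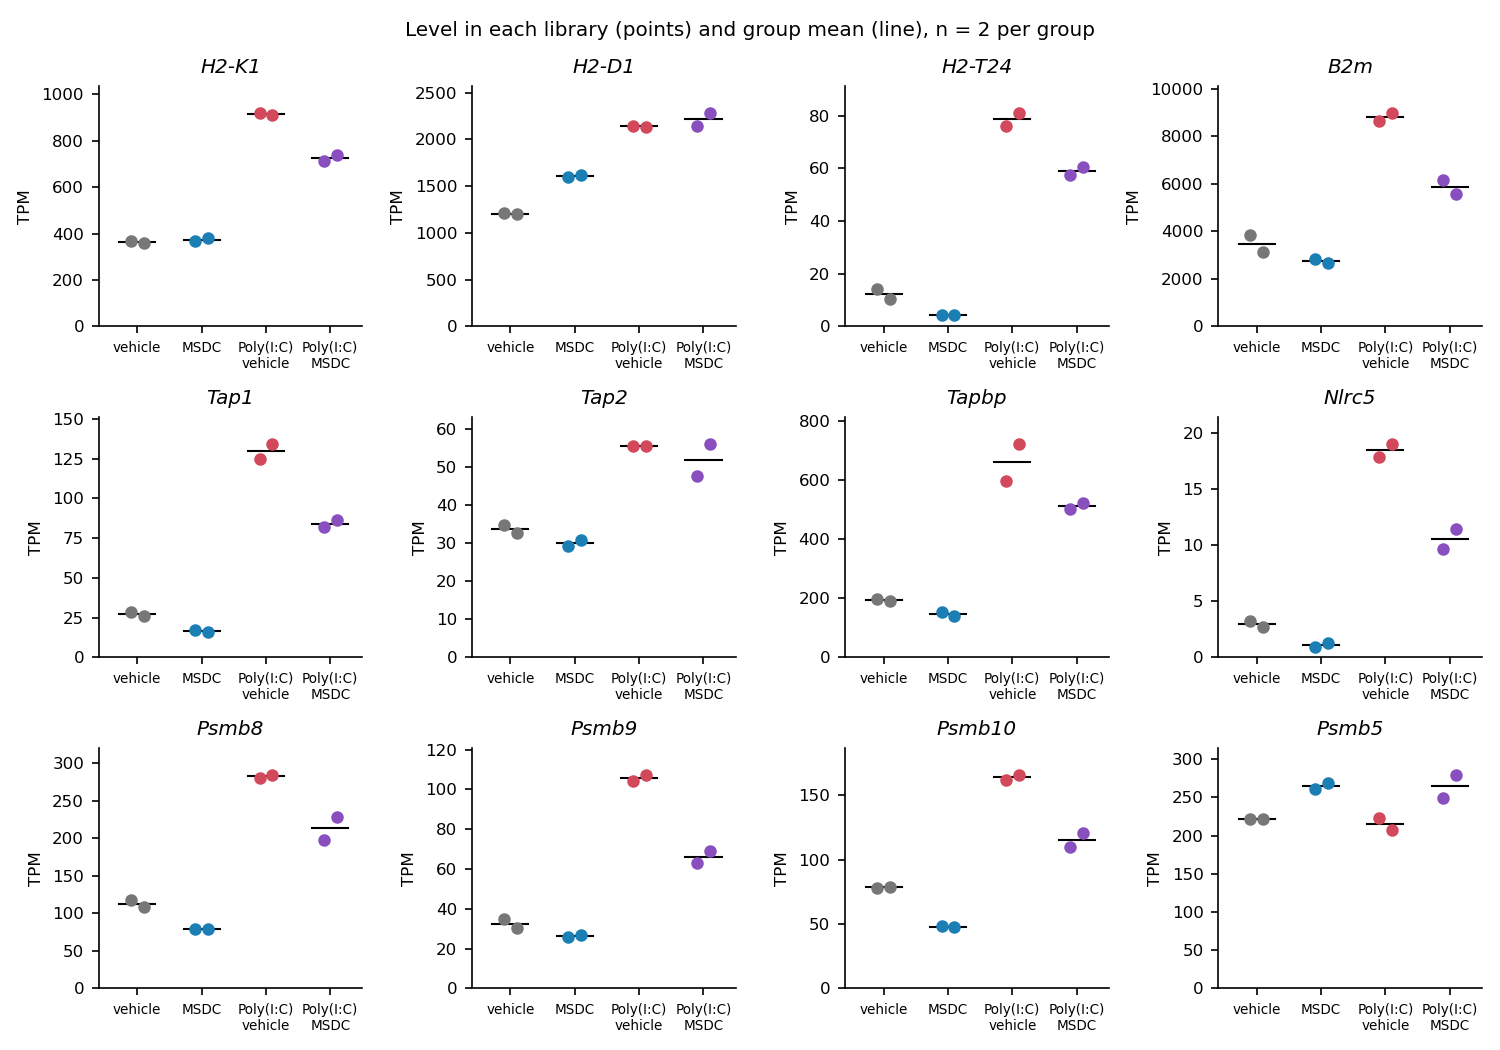
Level in TPM (vertical axis, from 0) of 12 of the genes in each of the 8 libraries (points) with the group mean (line), 2 libraries per group. Tap1 and Nlrc5 take the same order of groups, with MSDC alone lowest and Poly(I:C) with vehicle highest, whereas H2-D1 is higher with MSDC at rest (1597 and 1620 against 1210 and 1200 TPM) and Psmb5 differs little with Poly(I:C).

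Among proteasome genes the inducible and the constitutive catalytic subunits parted. Psmb8, Psmb9 and Psmb10 all rose with Poly(I:C) in both backgrounds, by 1.12 to 1.76 log2 units, and all fell with MSDC in stimulated cells. Psmb8 stood at 117 and 108 TPM in vehicle, 78.5 and 79.6 in MSDC, 281 and 284 in Poly(I:C) with vehicle, and 198 and 229 in Poly(I:C) with MSDC, and its groups did not overlap. It rose by 1.40 ± 0.075 log2 units in vehicle and 1.44 ± 0.076 in MSDC, and fell with MSDC by 0.48 ± 0.077 at rest (edgeR adjusted p = 0.000185) and 0.44 ± 0.072 in stimulated cells (adjusted p = 0.000233).

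Psmb9 stood at 34.7 and 30.4 TPM in vehicle, 26.0 and 26.9 in MSDC, 104 and 107 in Poly(I:C) with vehicle, and 63.2 and 69.0 in Poly(I:C) with MSDC. Its rise was 1.76 ± 0.094 log2 units in vehicle and 1.32 ± 0.097 in MSDC, and its fall with MSDC was 0.71 ± 0.088 in stimulated cells (edgeR adjusted p = 1.42e-05). At rest the value was -0.27 ± 0.10 (adjusted p = 0.0772). Psmb10 stood at 78.0 and 78.6 TPM in vehicle, 48.2 and 47.4 in MSDC, 162 and 166 in Poly(I:C) with vehicle, and 109 and 121 in Poly(I:C) with MSDC, again with all 4 groups apart. Psmb10 rose by 1.12 ± 0.070 and 1.26 ± 0.073 log2 units in vehicle and MSDC, and fell with MSDC by 0.68 ± 0.073 at rest (edgeR adjusted p = 3.18e-06) and 0.55 ± 0.069 in stimulated cells (adjusted p = 1.57e-05).

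The constitutive subunits that these replace had Poly(I:C) values of at most 0.25 log2 units. Psmb5 stood at 222 and 221 TPM in vehicle, 261 and 268 in MSDC, 223 and 208 in Poly(I:C) with vehicle, and 249 and 279.6 in Poly(I:C) with MSDC, with Poly(I:C) values of 0.028 ± 0.073 log2 units in vehicle and 0.0097 ± 0.072 in MSDC. It rose with MSDC by 0.28 ± 0.072 at rest (edgeR adjusted p = 0.00900) and 0.26 ± 0.072 in stimulated cells (adjusted p = 0.0129). Those calls were lost without MSDC replicate 2 at rest (adjusted p = 0.121), and in stimulated cells without the second vehicle library under Poly(I:C) (0.120) or the second MSDC library there (0.170). Of its 50-base windows 54.1% also occur in other annotated genes, Gm3375 first.

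Psmb6 stood at 278 and 302 TPM in vehicle, 364 and 348 in MSDC, 337 and 322 in Poly(I:C) with vehicle, and 333 and 362 in Poly(I:C) with MSDC. It rose with MSDC at rest by 0.32 ± 0.071 log2 units (edgeR adjusted p = 0.00314, and 0.0501 without MSDC replicate 1), and with Poly(I:C) in vehicle by 0.25 ± 0.071 (adjusted p = 0.0298). The latter call was lost without any 1 of 6 libraries, with library totals in place of TMM scaling and with the comparison's groups alone. Its log2 values over all settings ran from 0.171 to 0.337. Psmb7 stood at 187 and 193 TPM in vehicle, 194 and 199.7 in MSDC, 228 and 212 in Poly(I:C) with vehicle, and 209 and 219.8 in Poly(I:C) with MSDC, and was called in none of the 4 comparisons, with 0.23 ± 0.072 log2 units for Poly(I:C) in vehicle (edgeR adjusted p = 0.0522).

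As a measure of the balance between the subunits of each catalytic site, ratios of TPM were taken within each library. Psmb8 over Psmb5, the chymotrypsin-like site, was 0.528 and 0.487 in vehicle, 0.301 and 0.297 in MSDC, 1.26 and 1.37 in Poly(I:C) with vehicle and 0.793 and 0.817 in Poly(I:C) with MSDC. Psmb9 over Psmb6, the caspase-like site, was 0.125 and 0.101, 0.0714 and 0.0774, 0.309 and 0.333 and 0.190 and 0.191 in the same order of groups. Psmb10 over Psmb7, the trypsin-like site, was 0.418 and 0.408, 0.249 and 0.237, 0.712 and 0.783 and 0.524 and 0.549. All 3 ratios took the same order of groups with no overlap: lowest in MSDC, then vehicle, Poly(I:C) with MSDC and Poly(I:C) with vehicle. Only for Psmb8 over Psmb5 in Poly(I:C) with vehicle did the inducible RNA exceed the constitutive RNA. No test was made of these ratios, which are RNA levels and not subunits in assembled proteasomes.

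**Figure D3:**
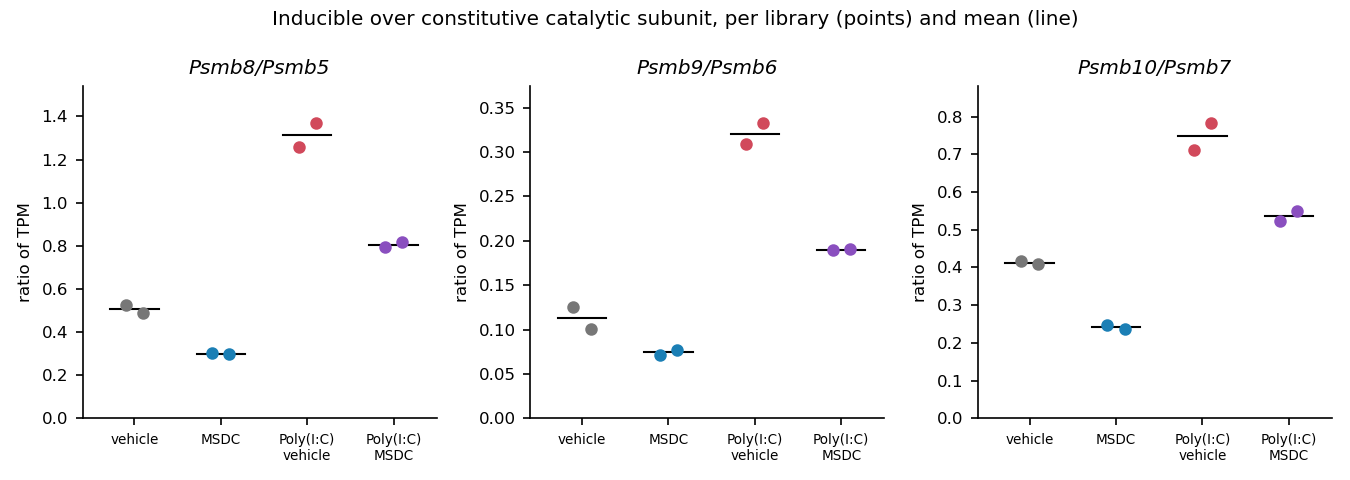
Ratio of the TPM of an inducible to a constitutive catalytic subunit (vertical axis, from 0) in each library (points) with the group mean (line), 2 libraries per group. In each panel MSDC alone is lowest (means 0.299, 0.0744 and 0.243) and Poly(I:C) with vehicle highest (1.31, 0.321 and 0.747).

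Of the activators that cap the proteasome, Psme1 and Psme2 form the interferon-inducible cap. Psme1 stood at 120.3 and 133 TPM in vehicle, 113 and 107 in MSDC, 274 and 260.0 in Poly(I:C) with vehicle, and 211 and 246 in Poly(I:C) with MSDC, and Psme2 at 231 and 224 TPM in vehicle, 222 and 232 in MSDC, 429.8 and 407 in Poly(I:C) with vehicle, and 389 and 405 in Poly(I:C) with MSDC. Both rose with Poly(I:C), Psme1 by 1.14 ± 0.085 and 1.06 ± 0.085 log2 units in vehicle and in MSDC and Psme2 by 0.95 ± 0.064 and 0.82 ± 0.064. Psme2 was not called with MSDC, and 28.3% of its 50-base windows also occur in other genes, Psme2b first. The fall of Psme1 with MSDC in stimulated cells, by 0.26 ± 0.082 (edgeR adjusted p = 0.0304), was lost without Poly(I:C) with vehicle replicate 1 (0.174) or 2 (0.0624) or without Poly(I:C) with MSDC replicate 1 (0.323). The ratio of Psme1 to Psme2 in TPM, chosen after the values were seen, ranged from 0.463 to 0.639 over the 8 libraries.

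Psme3 and Psme4 encode nuclear activators. Psme3 stood at 147 and 124 TPM in vehicle, 138 and 134 in MSDC, 116 and 132 in Poly(I:C) with vehicle, and 138 and 121 in Poly(I:C) with MSDC, with overlapping groups and no call. Psme4 stood at 29.6 and 24.5 TPM in vehicle, 27.7 and 26.4 in MSDC, 33.5 and 35.1 in Poly(I:C) with vehicle, and 32.6 and 35.0 in Poly(I:C) with MSDC. It rose with Poly(I:C) by 0.40 ± 0.077 log2 units in vehicle (edgeR adjusted p = 0.00218) and by 0.32 ± 0.077 in MSDC (adjusted p = 0.0197), the latter lost without any 1 of the 4 libraries compared, with adjusted p from 0.0609 to 0.218. With MSDC its values were 0.031 ± 0.077 and -0.055 ± 0.076.

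**Figure D4:**
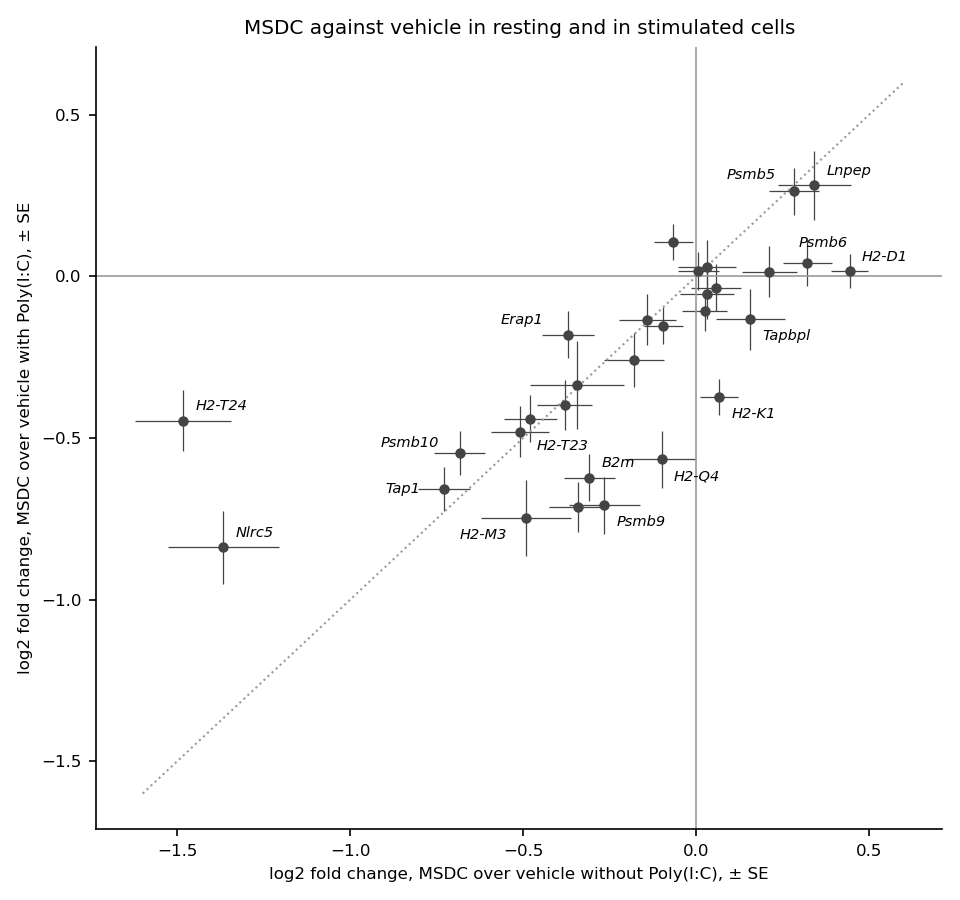
Log2 fold change of MSDC over vehicle without Poly(I:C) (horizontal axis) and with Poly(I:C) (vertical axis), each ± SE from edgeR, for 30 of the 32 genes, with H2-Q6 and H2-Q7 left out for their wide errors and the dotted line marking equal values. H2-T24 lies above the line (-1.48 at rest against -0.45), and H2-K1 and H2-D1 lie below it (0.067 and 0.44 at rest against -0.37 and 0.016).

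Whether MSDC altered the size of the response to Poly(I:C) was tested by the interaction, the response in MSDC minus the response in vehicle. It called 3 of the 32 members, 2 lower and 1 higher, where 0.103% and 0.12% of all tested genes were called, and the median over the members was -0.059 log2 units against 0.0062 over all genes. The response of H2-K1 was smaller in MSDC by 0.44 ± 0.078 log2 units (edgeR adjusted p = 0.0318) and that of H2-D1 by 0.43 ± 0.075 (adjusted p = 0.0291). In H2-T24 it was larger by 1.04 ± 0.17 (adjusted p = 0.0152), its level in MSDC alone being the lowest of the 4 groups. These calls were narrow: leaving out any 1 of the MSDC libraries, of the Poly(I:C) with MSDC libraries or Poly(I:C) with vehicle replicate 1 lost all 3, with adjusted p from 0.0557 (H2-T24) to 0.301 (H2-K1), and leaving out Poly(I:C) with vehicle replicate 2 lost H2-K1 (0.141) and H2-D1 (0.141). With library totals in place of TMM scaling the adjusted p was 0.0579 for H2-K1 and 0.0560 for H2-D1. For the other 29 members no difference in response was called, among them Nlrc5 (0.53 ± 0.20, adjusted p = 0.641), Tap1 (0.070 ± 0.10, adjusted p = 0.964) and Psmb8 (0.040 ± 0.11, adjusted p = 0.992). Some uncalled values were as large as or near those of H2-K1 and H2-D1. They were -0.47 ± 0.13 in H2-Q4, -0.44 ± 0.13 in Psmb9 and -0.37 ± 0.11 in H2-T22 (edgeR adjusted p = 0.367, 0.431 and 0.431). H2-Q7 stood at -1.91 ± 0.56 (adjusted p = 0.371) and the sum of H2-Q6 to H2-Q9 at -1.13 ± 0.27 (adjusted p = 0.197). Nlrc5 and H2-Q6 (0.42 ± 1.99) went the other way.

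Genes around the pathway were read from lists. The counts here and in the next paragraphs stand beside these shares of all tested genes. With Poly(I:C), 7.52% were called higher and 4.1% lower in vehicle, and 4.82% and 1.5% in MSDC. With MSDC, 11.1% were called higher and 12.4% lower at rest, and 12.5% and 13.6% in stimulated cells. No list was tested against these shares, and some counts lie near or below them. Of 16 transcription factors of the interferon and class I pathways, 6 rose with Poly(I:C) in vehicle, 5 rose in MSDC, and with MSDC 8 fell and 1 rose at rest while 5 fell in stimulated cells. Irf8, a macrophage transcription factor, fell with MSDC by 0.76 ± 0.070 at rest (edgeR adjusted p = 5.57e-07) and 0.92 ± 0.069 in stimulated cells (adjusted p = 5.95e-08). Ciita, the class II counterpart of Nlrc5, fell by 2.98 ± 0.34 and 2.93 ± 0.36 (edgeR adjusted p = 6.29e-06 and 1.33e-05). Irf9, a subunit of an interferon-activated transcription factor complex, fell by 1.21 ± 0.14 at rest (edgeR adjusted p = 4.96e-06). Its response to Poly(I:C) was larger in MSDC than in vehicle by 1.10 ± 0.18 log2 units (edgeR interaction, adjusted p = 0.0134). Of the 16 factors 1 was called in the interaction. Whether that call holds with single libraries left out was not examined.

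The lists also held the rest of the proteasome. Of 11 subunits shared by both forms of the core, 6 rose with Poly(I:C) in vehicle, Psma5 with the smallest p (by 0.40 ± 0.071 log2 units, edgeR adjusted p = 0.00104), and 2 in MSDC. With MSDC 1 rose at rest, and 1 rose and 1 fell in stimulated cells. Of 21 subunits of the regulatory particle, 3 rose with Poly(I:C) in vehicle, 4 rose with MSDC at rest, and 1 rose and 1 fell in stimulated cells. Psmd4, a ubiquitin receptor, rose with MSDC by 0.61 ± 0.084 at rest (edgeR adjusted p = 4.53e-05) and 0.49 ± 0.084 in stimulated cells (adjusted p = 0.000362). Of 6 assembly factors, Pomp, a proteasome maturation factor, rose with Poly(I:C) in vehicle by 0.28 ± 0.065 (edgeR adjusted p = 0.00904), and Psmg4 fell with MSDC in stimulated cells by 0.40 ± 0.13 (adjusted p = 0.0329).

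Of 10 other chaperones and translocon genes of the endoplasmic reticulum, 1 rose with Poly(I:C) in vehicle and 3 in MSDC, and with MSDC 1 rose and 5 fell at rest while 1 rose and 2 fell in stimulated cells. Bcap31, a cargo receptor of class I export, rose with MSDC by 0.80 ± 0.058 log2 units at rest (edgeR adjusted p = 3.62e-08) and 0.79 ± 0.058 in stimulated cells (adjusted p = 3.61e-08). Pdia4, a disulfide isomerase, fell by 0.58 ± 0.062 and 0.39 ± 0.062 (edgeR adjusted p = 3.50e-06 and 0.000165). Of 5 cytosolic peptidases, Lap3, a leucine aminopeptidase, was the 1 that rose with Poly(I:C), by 0.53 ± 0.080 in vehicle and 0.36 ± 0.080 in MSDC (edgeR adjusted p = 0.000265 and 0.00954).

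Among 15 tested further class I and class I-like genes, 7 rose and 1 fell with Poly(I:C) in vehicle, 5 rose and 1 fell in MSDC, and with MSDC 3 rose and 2 fell at rest while 2 rose and 5 fell in stimulated cells. H2-Q8, part of the sum above, had the smallest p with Poly(I:C) in both backgrounds. It rose by 5.29 ± 0.23 log2 units in vehicle and 3.34 ± 0.22 in MSDC (edgeR adjusted p = 8.40e-11 and 2.22e-08). With MSDC in stimulated cells its value was -1.20 ± 0.15 (adjusted p = 1.43e-05). H2-M2 rose with Poly(I:C) in vehicle by 1.44 ± 0.15 log2 units (edgeR adjusted p = 4.87e-06), and fell with MSDC by 1.01 ± 0.17 at rest (adjusted p = 0.000370) and 1.80 ± 0.16 in stimulated cells (adjusted p = 2.64e-07). Fcgrt, the neonatal Fc receptor, is a class I-like chain that pairs with beta-2-microglobulin but presents no peptide. It rose with MSDC by 0.94 ± 0.085 at rest and 1.01 ± 0.086 in stimulated cells (edgeR adjusted p = 5.36e-07 and 2.23e-07). Hfe, an iron-regulating class I-like chain, fell by 0.71 ± 0.11 at rest (edgeR adjusted p = 0.000186).

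The order of levels within the machinery, in TPM and so per gene length, was led in vehicle by B2m (mean 3478), Calr (1789), H2-D1 (1205), Pdia3 (617) and H2-K1 (363), and closed by H2-M3 (11.6), Nlrc5 (2.95), H2-Q6 (1.10) and H2-Q7 (1.06). The last pair did not differ beyond the spread of their replicates, nor did Tap1 (27.5 ± 1.86, SD, n = 2), Psme4 (27.0 ± 3.57) and H2-Q4 (28.6 ± 0.679).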

How the data were processed

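Bulk RNA-seq covered 8 samples, 2 in each of 4 groups. The table deposited by the authors holds, per gene and sample, an expected count (read counts per the file headers, of which 5.95 to 7.19% of values in a library were not whole), an FPKM and a TPM. The authors scaled the FPKM and the TPM values by length and depth, as those units are named per the file headers. TopHat2 2.1.1, Bowtie2 2.3.4 and Cuffdiff with GRCm38 (mm10) are listed in the submitters' processing notes, which do not link them to columns. The strand of the library kit, the strain of the mice and how reads shared between genes were counted are not given in the sources used here.

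Counts were rounded to whole numbers. The filterByExpr function of edgeR left 11621 genes, TMM gave scaling factors of 0.985 to 1.027, and all 8 libraries entered 1 quasi-likelihood model with 4 groups (edgeR 4.0.16, R 4.3.3, 4 residual degrees of freedom). The 5 comparisons were adjusted by Benjamini-Hochberg over all tested genes, each two-sided. An SE is the log2 fold change over the square root of its F statistic. TPM served to show levels and to form ratios. In these libraries 3 counts correspond to 0.102 to 0.104 CPM, a floor that covers counting error only. The scripts were tested on simulated data.

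The members and the gene lists were chosen with earlier results of these data known. All 32 members are described. Of the other lists, counts are given with at most 3 genes of smallest p per comparison, and Irf7 and Isg15 of the interferon-stimulated genes. Alternatives were DESeq2 1.42.0, no filter, library totals, a replicate block, each comparison's groups alone, and leaving out each library. The sum of H2-Q6 to H2-Q9 and 4 of the ratios were added after the data were seen. The log2 CPM difference between the replicates of a group was correlated over genes with that of each other group. These correlations ran from -0.026 to 0.034. They show no replicate difference common to the groups, but cannot tell whether replicate numbers pair the libraries.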

Additional observations from a re-analysis of the deposited data

Results flagged for a closer look

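The test of the difference itself called 3 members that responded differently to Poly(I:C) in MSDC and in vehicle. The response of H2-K1 differed by -0.44 log2 units and that of H2-D1 by -0.43, so both classical heavy chains rose less in MSDC. That of H2-T24 differed by 1.04, so it rose more in MSDC. None of these 3 calls held in every setting, as given below. The values of H2-D1 with MSDC were 0.44 at rest and 0.016 in stimulated cells, whereas those of H2-K1 were 0.067 and -0.37. The difference equals the MSDC value in stimulated cells minus the one at rest. In H2-D1 it thus lay mainly in the value at rest, and in H2-K1 mainly in the one in stimulated cells. H2-T24 was lower with MSDC in both states, by 1.48 at rest and by 0.45 in stimulated cells. Why the states differ was not tested.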

How the results depend on the processing

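Over the 12 to 14 settings run for each member and comparison, no call reversed direction. Calls held in every setting for 22 of 24 members raised by Poly(I:C) in vehicle and 19 of 24 in MSDC, and for 8 of 11 lowered by MSDC at rest and 13 of 15 in stimulated cells. Of the 4 raised by MSDC at rest 1 held in every setting (H2-D1), and none of the 3 interaction calls did. With single libraries left out, the members raised by MSDC at rest numbered 2 to 5, and those raised in stimulated cells 0 to 2. Without a filter, and with the comparison's groups alone, 2 members rose with MSDC in stimulated cells, where the comparison as reported had 1. Members with a smaller response to Poly(I:C) in MSDC (2 as reported) numbered 5 without a filter, 0 with library totals and 0 to 3 with single libraries left out, and those with a larger response (1) numbered 0 to 1. The causes of these shifts were not tested. A replicate block left 1 of the 2 smaller responses, with H2-K1 at an adjusted p of 0.0521, and moved the Poly(I:C) rises in MSDC from 24 to 22, through Calr and Canx at 0.0532 each. The labels do not say whether replicate numbers pair the libraries. The block changed no other call among the members.

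With 2 libraries a group the spread of a gene has 4 residual degrees of freedom, shared by all groups. The edgeR fit draws that spread towards a trend over all genes, with 10.8 prior degrees of freedom. Much of the information on the spread thus comes from other genes. Leaving out 1 library leaves a group with 1, which is then assumed to vary like the others. Depth limits H2-Q6 and H2-Q7, at 0 to 56.6 counts in resting libraries. The strain is not known, and H2 transcripts share sequence with each other, so counts of single H2 genes depend on how shared reads were assigned.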
